A study of Rattus norvegicus with 40 samples.

Results

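Genes that mark neutrophils or draw them into tissue were followed across rat carotid arteries after balloon injury. The set held 6 genes, taken by symbol from the platform annotation, and used every probe set that names exactly one of them. Of the 6, 5 had a probe set on the array (Cxcl2, Cxcr2, S100a8, S100a9 and Defa5, one probe set each), among 4736 genes named in all, and all 5 were bright enough to be tested. No probe set carries the name Cxcl1, so its level was not analysed here.

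The arteries came from male Wistar-Kyoto rats aged 3 months. In the operated rats a balloon catheter was drawn through the left common carotid artery, which strips the inner lining and stretches the wall. The outer, adventitial side of that artery was then covered with 500 µl of plain pluronic gel, a carrier, or with gel holding recombinant tissue-type plasminogen activator (tPA, a protease that turns plasminogen into plasmin) at 20 nmol/kg. Left and right carotids of these rats were taken on day 1 or day 4, which gave 8 groups of 3 arrays: left gel, right gel, left tPA and right tPA on each day. The right arteries had neither balloon nor gel of their own but came from rats whose left artery had both. There were 4 sham arrays for day 1 and 6 for day 4, from rats given a sham operation, and 6 from intact rats, all labelled as left carotid. RNA of 3 vessels was pooled for each of the 40 arrays, so no value belongs to one animal, and the labels do not say whether same-numbered left and right arrays share rats. Levels are the deposited intensities of an Affymetrix rat expression array, which holds several short probes per probe set, compared only within a probe set. A difference is the log2 mean of the group named first less that of the second, taken after every value under a floor of 23.3, the 20th percentile of the table, was set to that floor.

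Neutrophils are short-lived white blood cells that reach injured tissue early. Cxcl1 and Cxcl2 are chemokines released by injured or cytokine-stimulated cells, and both bind Cxcr2, the receptor through which neutrophils move towards them. S100a8 and S100a9 form a calcium-binding heterodimer, calprotectin, that makes up a large share of neutrophil cytosolic protein and is also carried by monocytes. Defa5 belongs to the alpha-defensins, small antimicrobial peptides stored in granules of rat neutrophils and of Paneth cells in the gut. The defensin genes are near copies of one another, so a defensin probe set may read more than one of them.

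Promoter sequences were in RefSeq's table for 4 of the 6 genes (Cxcl1, Cxcl2, Cxcr2 and S100a9). Those of 3 genes are shown because they belong to a chemokine and a calprotectin gene that were high in the same arrays and to the receptor, which passed no comparison. Each line gives the 250 bases before the annotated start (GRCr8), on the gene's strand, with matches to 3 short motifs in capitals. The positions are chr14:17467256-17467505 (minus strand) for Cxcl2, chr2:178490623-178490872 (minus strand) for S100a9 and chr9:83178395-83178644 (plus strand) for Cxcr2.
Cxcl2: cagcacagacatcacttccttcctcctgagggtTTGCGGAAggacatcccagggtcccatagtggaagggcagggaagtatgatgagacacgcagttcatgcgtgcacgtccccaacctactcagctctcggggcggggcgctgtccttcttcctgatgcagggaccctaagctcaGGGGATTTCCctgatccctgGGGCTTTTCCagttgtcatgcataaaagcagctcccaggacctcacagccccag
S100a9: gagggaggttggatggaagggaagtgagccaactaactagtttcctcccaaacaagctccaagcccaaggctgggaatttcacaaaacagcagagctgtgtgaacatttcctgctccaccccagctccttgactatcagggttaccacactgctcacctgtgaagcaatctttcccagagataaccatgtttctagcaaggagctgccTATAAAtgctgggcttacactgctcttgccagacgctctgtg
Cxcr2: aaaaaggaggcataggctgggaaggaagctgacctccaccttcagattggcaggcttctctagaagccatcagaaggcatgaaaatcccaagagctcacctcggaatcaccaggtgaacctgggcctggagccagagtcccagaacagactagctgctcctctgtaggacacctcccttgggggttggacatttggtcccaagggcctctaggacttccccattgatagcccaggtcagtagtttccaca
The motifs, searched on both strands, were GGG, any 2 bases and TTTCC for NF-kB, TTGCNNAA for C/EBP and TATAAA for the TATA box. The Cxcl2 window held 2 NF-kB matches, at -74 to -65 and -54 to -45 from the start, and 1 C/EBP match at -217 to -210. The Cxcl1 window, not shown, also held 2 NF-kB matches. In the S100a9 window the TATA box letters stood at -42 to -37, and the Cxcr2 window matched none of the 3 motifs. Over 33469 promoter windows of this length, 1.3% held the NF-kB letters, 9.22% those of C/EBP and 12.9% those of the TATA box. A match describes letters and shows no binding.

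Before the comparisons, the arrays were checked against their labels. The tissue labels were borne out by smooth muscle genes: Acta2, the smooth muscle actin, read 4835.1 to 13013.7 over the 40 arrays, and none of the 5 smooth muscle markers with a probe set was at the floor on any array. An injury score set 753 probe sets that were higher against 612 that were lower in injured gel arteries compared with sham, without the neutrophil genes and without any tPA array. It lay, by construction, high in left gel arrays (0.60 to 0.92), and 4 tPA arrays had scores unlike the rest of their groups. On the right side, the array labelled tPA replicate 2 of day 1 scored 0.62 and replicate 1 of day 4 scored 0.61. On the left side, the array labelled tPA replicate 2 of day 1 scored -0.09 and replicate 1 of day 4 scored -0.35. Right gel day 1 replicate 3 correlated at -0.11 with the rest of its group. It had the highest median intensity of the 40 arrays (169.25) and 6.57% of probe sets at the floor, against 15.6% or more on the others. The lowest such correlation was -0.28, on left tPA day 4 replicate 1. Left gel day 1 replicates 1 and 3 were the most alike of 60 pairs within groups (SD of log2 differences 0.45, median of the pairs 0.84). On 5 arrays Hbb, a haemoglobin chain, read 141.6 to 202, against 3279.1 to 8973.7 on the others, and these were right tPA day 4 replicates 1 and 3, left tPA day 4 replicate 3, right gel day 1 replicate 3 and left tPA day 1 replicate 3. Labels were kept as deposited throughout.

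Cxcl2 had the lowest adjusted p of the members in left gel arteries against sham on both days. In intact arteries it read 4.5 to 10.6 (median 7.05, 6 arrays). Sham arteries of day 1 read 6.8, 39.4, 4.4 and 7.8, and those of day 4 read 5.4 to 29.3 (median 7.95). The gene was thus at the floor on all intact arrays, on 3 of 4 sham arrays of day 1 and on 5 of 6 of day 4. In left gel arteries Cxcl2 read 3486.1, 122.7 and 4134.4 on day 1 and 254.6, 361.6 and 260.7 on day 4. All 6 of these values stood above all 16 sham and intact arrays. On day 1 replicates 1 and 3 were far above replicate 2, whereas the day 4 values lay close together. Left tPA arteries read 1783.2, 12.8 and 1131.7 on day 1 and 6.4, 43.1 and 254.4 on day 4. The low values belonged to replicate 2 of day 1 and replicate 1 of day 4, the left tPA arrays with low injury scores. In right arteries the gene read 64.1, 191.9 and 103.6 with gel and 19.9, 69.1 and 26.7 with tPA on day 1. On day 4 the right arteries read 144.5, 12.7 and 75.2 with gel and 570.9, 20.8 and 8.4 with tPA. The value of 570.9 came from right tPA day 4 replicate 1, which had the score of an injured artery. By group mean the order was left gel day 1 (log2 10.24), left tPA day 1 (8.50) and left gel day 4 (8.17), then right gel day 1 (6.76). Neighbouring groups in this order overlapped in range at every step except between left gel day 4 and right gel day 1.

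S100a8 was high in most injured arteries of day 1 and in some arrays elsewhere. Left gel arteries of day 1 read 2556.8, 157.5 and 2614.4, and left tPA arteries of that day read 1115.1, 90.9 and 4683.1. Sham arteries of day 1 read 90.9, 124.2, 56.4 and 30.8, so the lowest left gel value was above the highest sham value, while left tPA replicate 2 lay among the sham arrays. On day 4 left gel arteries read 171.6, 123.5 and 167.3, left tPA arteries 35.6, 40.4 and 226.0, and sham arteries 6.0 to 72.2 (median 45.95). Intact arteries read 6.1 to 46.6 (median 17.1). Right gel arteries read 18.5, 113.4 and 821.1 on day 1 and 94.1, 13.3 and 113.7 on day 4. Right tPA arteries read 41.8, 158.8 and 266.4 on day 1 and 4916.3, 178.6 and 296.8 on day 4. The highest value of the study, 4916.3, came from right tPA day 4 replicate 1, and the next, 4683.1, from left tPA day 1 replicate 3. Both arrays were among those with dim Hbb, and in each of the 4 groups that held such an array the highest S100a8 value was on one of them. These 2 arrays also had the lowest ratios of 3' to 5' probe sets of all 40, a measure of RNA integrity and labelling, at 4.95 and 2.80 for actin (7.38 or more on the others) and 0.33 and 0.24 for Gapdh (1.41 or more). The part that blood content and RNA quality played in these values was not tested. The group order was left gel day 1 (log2 9.99), left tPA day 1 (9.61) and right tPA day 4 (9.32), then left gel day 4 (7.25), with intact arteries lowest (4.78).

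S100a9, the partner of S100a8, was high in the same arrays. Left gel arteries of day 1 read 566.3, 109.4 and 537.8 and left tPA arteries 414.4, 61.9 and 1073.1, against 31.6, 37.5, 7.9 and 10.2 in sham. All 6 injured arrays of day 1 were above all 4 sham arrays. On day 4 left gel arteries read 109.7, 159.4 and 185.4, all above sham (14.1 to 68.6, median 45.5), and left tPA arteries read 31.4, 18.3 and 169.0. Right gel arteries read 7.4, 10.7 and 387.4 on day 1 and 54.4, 26.4 and 81.5 on day 4. Right tPA arteries read 10.5, 53.6 and 312.2 on day 1 and 2270.8, 15.3 and 178.7 on day 4. Among right arteries, right tPA day 4 replicate 1 and right gel day 1 replicate 3 had the highest values, in S100a8 as well. Right tPA replicate 3 of day 1 (312.2) and of day 4 (178.7) also stood above all 16 sham and intact arrays, again in both genes. Intact arteries read 5.5 to 29.1 (median 10), with 5 of 6 under the floor. The group means ran from log2 8.33 in left gel day 1 to 4.60 in intact arteries, and each group overlapped its neighbour in this order.

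Defa5 was high in left gel replicates 1 and 3 of day 1 and low on most other arrays. Left gel arteries of day 1 read 734.7, 101.6 and 672.1, all above sham of that day (47.8, 71.2, 32.7 and 34.3). On day 4 left gel arteries read 16.2, 6.2 and 156.4, of which 2 lay below and 1 above the range of sham (24.3 to 96.8, median 87.2). Left tPA arteries read 39.8, 62.4 and 353.7 on day 1 and 50.9, 73.7 and 29.4 on day 4. Right gel arteries read 38.1, 62.6 and 209.6 on day 1 and 17.3, 91.5 and 71.9 on day 4. Right tPA arteries read 74.9, 48.2 and 54.4 on day 1 and 143.8, 29.5 and 14.6 on day 4, and intact arteries 9.2 to 62.8 (median 27.55). Left gel day 1 had the highest mean (log2 8.53) and intact the lowest (5.06), and every pair of neighbouring groups overlapped.

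Cxcr2, the receptor, stayed dim in all 11 groups. Left gel arteries read 8.6, 70.3 and 97 on day 1 and 60.2, 19.4 and 69.2 on day 4. Left tPA arteries read 100.7, 49.6 and 53.2 on day 1 and 156.2, 83.1 and 44.2 on day 4. Sham arteries read 60.2, 56.4, 35.9 and 125.6 on day 1 and 19.0 to 114.0 (median 56.05) on day 4, and intact arteries 32.1 to 73.0 (median 50). Right gel arteries read 91.7, 53.4 and 67.4 on day 1 and 63.2, 80.2 and 31.0 on day 4. Right tPA arteries read 40.7, 68.6 and 75.4 on day 1 and 13.7, 54.9 and 58.0 on day 4. Arrays with much Cxcl2 or S100a8 were found at both ends of the Cxcr2 range. Left gel day 1 replicate 3, which had the most Cxcl2, was rank 5 of the 40 arrays in Cxcr2 (97). Left gel day 1 replicate 1, rank 2 in Cxcl2, had the lowest Cxcr2 value (8.6). Right tPA day 4 replicate 1, which had the most S100a8, read 13.7. Group means lay between log2 5.39 and 6.38, and all neighbouring groups overlapped.

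**Figure D1:**
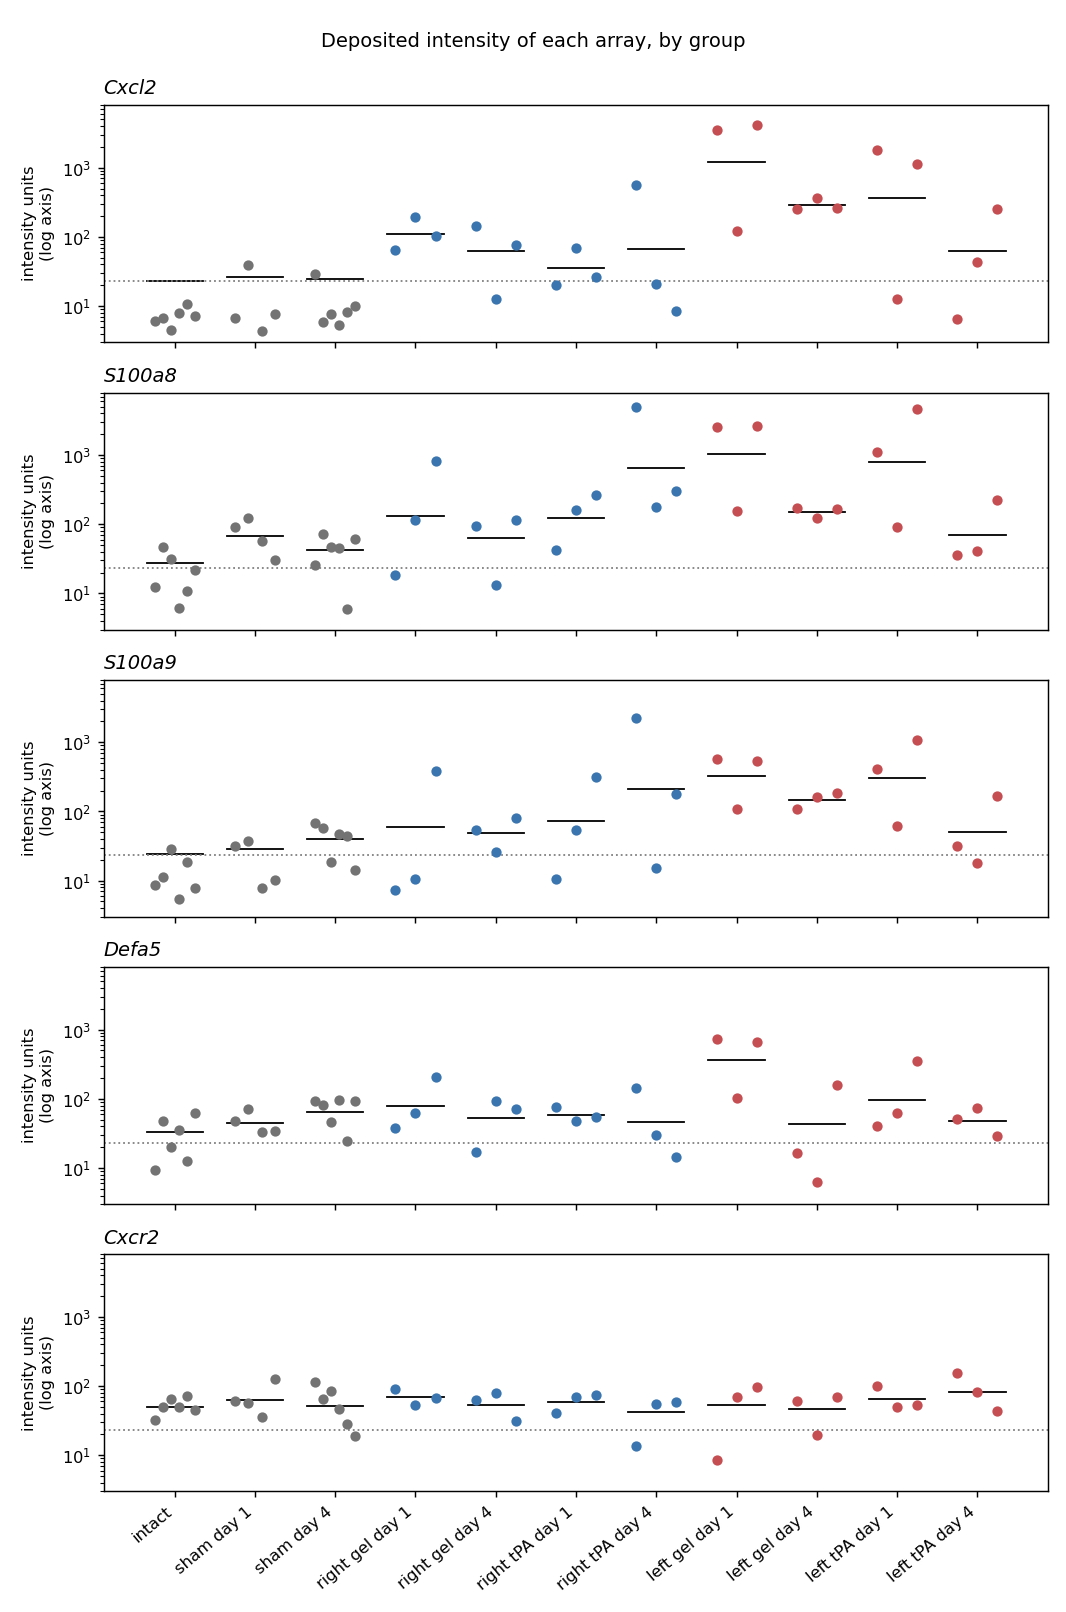
Intensity of each member gene on each array (log axis, intensity units) by group, with grey points for intact and sham, blue for right and red for left arteries, a bar at the mean of the floored log2 values and a dotted line at the floor of 23.3. Cxcl2, S100a8, S100a9 and Defa5 have their highest group means in left gel arteries of day 1, where replicates 1 and 3 lie far above replicate 2, whereas Cxcr2 lies between 8.6 and 156.2 on all 40 arrays.

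The first comparison asked what balloon injury under plain gel changed after 1 day against the sham operation. Of the 5 genes tested 3 were higher in the injured artery by limma (adjusted p under 0.05 over 5827 probe sets), where 3.12% of all tested probe sets passed and 1.66% of all tested passed as higher. Cxcl2 rose from log2 4.73 ± 0.38 (SD, n = 4) to 10.24 ± 2.86 (SD, n = 3), a difference of 5.51 (SE 1.10) with a limma adjusted p = 0.00493, and no fold is given because 3 of the 4 sham arrays were raised to the floor. S100a8 rose 15.3-fold (3.13 to 74.6; difference 3.93, SE 1.12) with a limma adjusted p = 0.0459, and Defa5 8.34-fold (2.83 to 24.6; difference 3.06, SE 0.77) with a limma adjusted p = 0.0193. S100a9 had a difference of 3.51 (SE 1.05, limma adjusted p = 0.0604) and did not pass, although its 3 injured arrays also lay above all sham arrays. Ranges did not overlap, with injury higher, for 4 of the 5 genes, against 11.1% of all probe sets tested. Cxcr2 differed by -0.21 (95% interval -1.30 to 0.89, limma adjusted p = 0.932). The median difference was 3.51 over the 5 genes and -0.01 over all probe sets tested. More cells of a type and more RNA per cell cannot be told apart in such bulk samples.

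The day 1 result rested on left gel replicates 1 and 3. With these 2 alike arrays averaged and counted as 1, only Cxcl2 passed (difference 4.68, limma adjusted p = 0.0434), and S100a8 (3.26) and Defa5 (2.60) had adjusted p = 0.236 and 0.135. Only Cxcl2 also passed without left gel replicate 1, left gel replicate 3, sham replicate 3 or sham replicate 4, each left out in turn. The S100a8 call was also lost with quantile normalization (adjusted p = 0.0815), without the filter on dim probe sets (0.0843), with only these groups fitted (0.0525) and without sham replicate 1 or 2 (0.0787 and 0.0654). Without the 4 tPA arrays that stood apart, which enter here through the shared estimate of the spread, all members except Cxcr2 passed (S100a9 adjusted p = 0.00809), and the same 4 genes passed without the 5 arrays with dim Hbb. Both sets of arrays lie outside the groups compared and were chosen after the data were seen. They act here only through that spread, so these passes are no separate support. Each left gel array of day 1, replicate 2 included, had 4 of the 5 genes above all 16 sham and intact arrays. The share of all tested probe sets above those arrays was 11.6, 10.5 and 12.5% in replicates 1, 2 and 3.

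**Figure D2:**
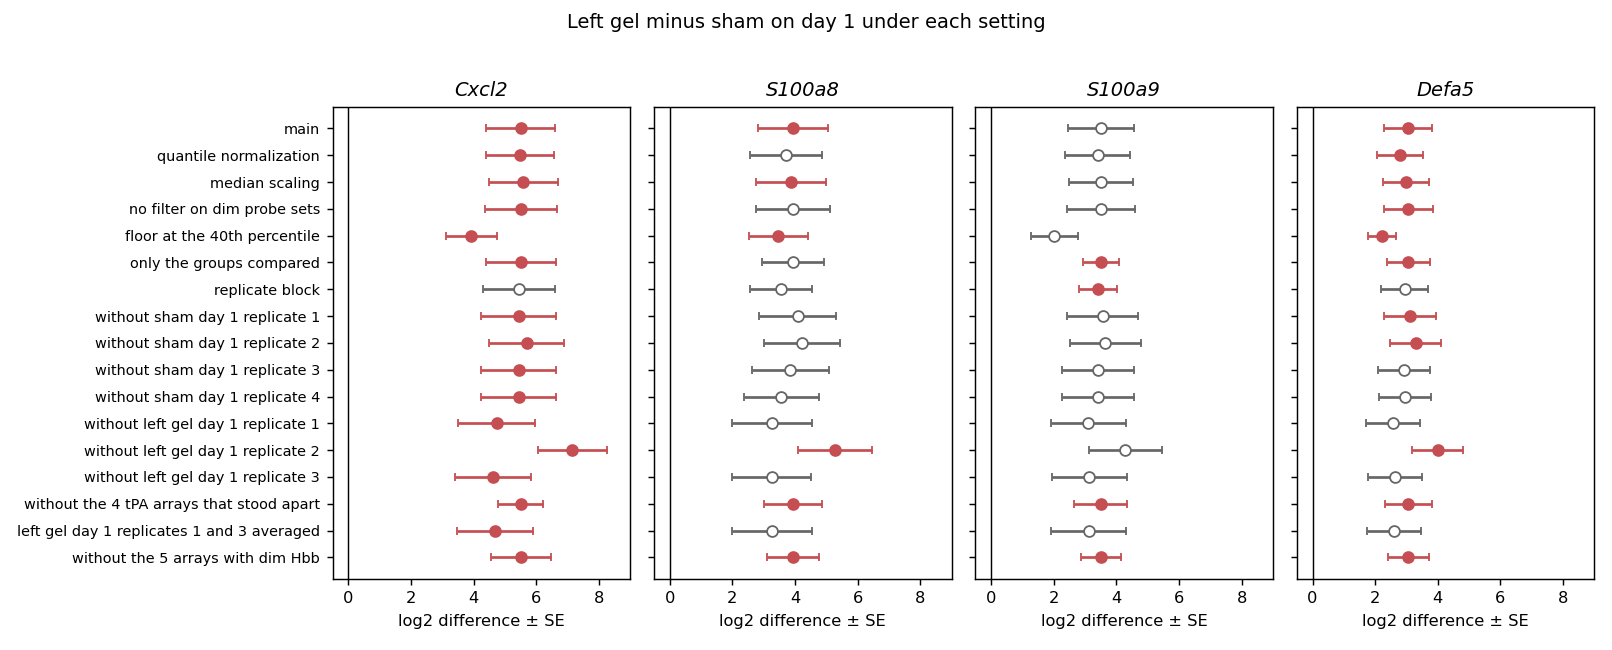
Difference between left gel and sham arteries on day 1 (log2, point with SE) for 4 member genes under each way of processing, with filled red points where the limma adjusted p lies under 0.05. Every difference is above 0, from 2.02 for S100a9 with a higher floor to 7.16 for Cxcl2 without left gel replicate 2, and Cxcl2 passes in all settings but the replicate block.

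On day 4 Cxcl2 was the one member past the threshold in left gel arteries. It rose from log2 4.60 ± 0.13 (SD, n = 6) to 8.17 ± 0.28 (SD, n = 3), a difference of 3.57 (SE 1.02) with a limma adjusted p = 0.0115, measured from 5 sham arrays of 6 raised to the floor. On that day 19.2% of all tested probe sets passed and 11.3% were higher, so 1 of 5 members is near that background. S100a9 and S100a8 differed by 1.87 (SE 0.97) and 1.86 (SE 1.04), with limma adjusted p = 0.196 and 0.233, although their left gel ranges lay above sham as did 14.1% of all probe sets. Defa5 differed by -0.57 (95% interval -2.01 to 0.87) and Cxcr2 by -0.17 (-1.18 to 0.84). The Cxcl2 call was lost without left gel replicate 2 (adjusted p = 0.0531) and with a floor at the 40th percentile (difference 1.86, adjusted p = 0.0755). The 3' to 5' ratio of actin was 7.38 to 8.09 on the left gel arrays and 11.8 to 23.7 on the sham arrays of day 4, without overlap, and its part in these differences was not tested. When only these 2 groups were fitted, S100a8 and S100a9 passed as well (adjusted p = 0.00418 and 0.00499).

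**Figure D3:**
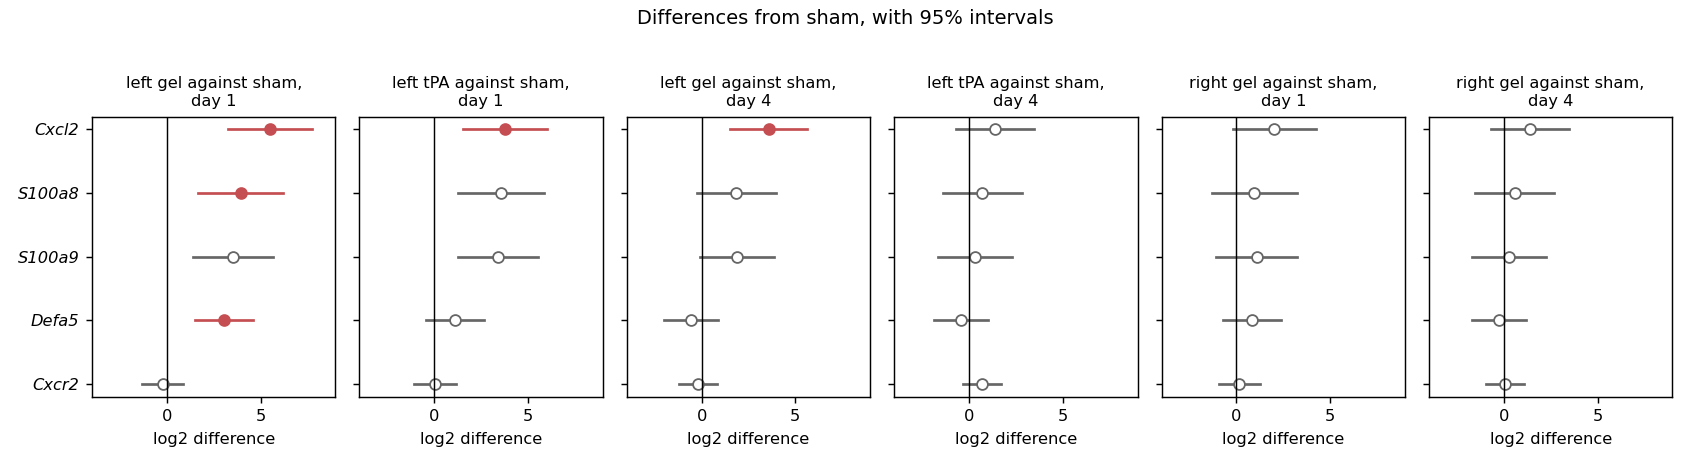
Difference from sham of the same day (log2, with 95% intervals) for the 5 member genes in left gel, left tPA and right gel arteries on days 1 and 4, filled in red where the limma adjusted p lies under 0.05. Cxcl2 is filled in 3 panels, S100a8 and Defa5 in left gel on day 1 alone, and the Cxcr2 differences lie between -0.21 and 0.68.

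Time after injury was compared directly in left gel arteries. Defa5 was lower on day 4 than on day 1, at log2 5.46 ± 1.59 against 8.53 ± 1.61 (SD, n = 3 each), a difference of -3.07 (SE 0.82) with a limma adjusted p = 0.0321. Its size depends on the floor, to which 2 of the 3 arrays of day 4 were raised. It was the only member past the threshold, where 3.21% of all probe sets passed and 1.12% were lower. S100a8 (-2.74, SE 1.20, adjusted p = 0.213), Cxcl2 (-2.07, SE 1.18, adjusted p = 0.347) and S100a9 (-1.12, SE 1.12, adjusted p = 0.641) had lower means on day 4 and did not pass, and whether the genes differed in this change was not tested. Left gel replicate 3 of day 4 had 156.4 for Defa5, above left gel replicate 2 of day 1, so the ranges overlapped. The Defa5 call was lost with only these groups fitted (adjusted p = 0.134), with the alike day 1 arrays averaged (0.154), and without left gel replicate 1 or 3 of day 1 or replicate 1 or 2 of day 4 (0.136 to 0.175). The change in the injury effect itself, left gel over sham on day 4 minus that on day 1, was -3.63 for Defa5 (SE 1.04, adjusted p = 0.0549). No member passed that test by limma, where 2.42% of probe sets did, and 1 had an unadjusted p under 0.05, as did 13.6% of all probe sets.

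Under tPA the injured artery was set against sham as well. On day 1 Cxcl2 was higher, at log2 8.50 ± 3.44 (SD, n = 3) against 4.73 ± 0.38 (SD, n = 4), a difference of 3.76 (SE 1.10) with a limma adjusted p = 0.0425, with 3 of the 4 sham arrays and 1 of the 3 tPA arrays raised to the floor. It was 1 of 5 members past the threshold, where 4.43% of all tested probe sets passed and 1.61% were higher. S100a8 (3.55, SE 1.12, adjusted p = 0.0635) and S100a9 (3.41, SE 1.05, adjusted p = 0.055) did not pass, although S100a9 was above sham on all 3 arrays, as were 11.6% of all probe sets. Left tPA replicate 2, which had a low injury score, had none of the 5 genes above all 16 sham and intact arrays, replicate 1 had 3 and replicate 3 had 4, while 9.73, 14.5 and 15.5% of all probe sets were above them. Without replicate 2 the genes Cxcl2, S100a8 and S100a9 all passed (differences 5.74, 5.10 and 4.56, adjusted p = 0.00068, 0.00538 and 0.0103). Leaving out the array with the low injury score raises the difference for any gene that follows the score, so these passes are no separate support. The Cxcl2 call was lost without any one of the 4 sham arrays (adjusted p = 0.0707 to 0.0932), without left tPA replicate 1 or 3 (0.223 and 0.21), with only these groups fitted (0.17), without the filter on dim probe sets (0.069) and without the 5 arrays with dim Hbb (0.134). Defa5 differed by 1.12 (SE 0.77, adjusted p = 0.403), and its one high tPA array, replicate 3, was also one with dim Hbb. On day 4 no member passed in left tPA arteries by limma, where 5.87% of all probe sets did, and none had an unadjusted p under 0.05, as 21.5% of all probe sets had. Cxcr2 differed by 0.68 (95% interval -0.33 to 1.70, adjusted p = 0.469) and Cxcl2 by 1.39 (-0.68 to 3.46, adjusted p = 0.471).

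Left tPA arteries were set against left gel arteries to compare tPA with its carrier. None of the 5 genes passed on either day by limma, where 0.12% of all probe sets passed on each day, and the counts at an unadjusted p under 0.05 were 1 on day 1 (13.3% of all probe sets) and 0 on day 4 (7.77%). On day 1 Defa5 differed by -1.95 (95% interval -3.61 to -0.28, adjusted p = 0.31) and Cxcl2 by -1.74 (-4.13 to 0.65, adjusted p = 0.508). S100a8 differed by -0.38 (-2.83 to 2.06) and S100a9 by -0.09 (-2.38 to 2.19). Single arrays set these directions. Without left tPA replicate 2, the array with an injury score of -0.09, the difference turned to 0.23 for Cxcl2, 1.17 for S100a8 and 1.05 for S100a9 (adjusted p = 0.953, 0.737 and 0.756). Without left gel replicate 1 or replicate 3 it turned to 0.28 and 0.30 for S100a8 and to 0.32 and 0.28 for S100a9. That of Defa5 stayed below 0 with each array of these groups left out, from -2.89 to -1.31. The intervals for S100a8 and S100a9 reach more than 2 log2 units on both sides, so neither a fall nor a rise of 4-fold in the calprotectin genes can be set aside. On day 4 Cxcl2 was lower in all 3 left tPA arrays (6.4, 43.1 and 254.4) than in all 3 left gel arrays (254.6 to 361.6), as were 5.51% of all probe sets, with a difference of -2.18 (-4.58 to 0.21, adjusted p = 0.687). S100a9 differed by -1.57 (-3.85 to 0.71) and S100a8 by -1.15 (-3.59 to 1.30). Left gel is the shared partner of these comparisons and of those with sham, so the values are not independent of each other. The 2 groups of day 1 also differed in skeletal muscle signal. The mean log2 level of 7 such genes was 6.35 to 9.13 on left tPA arrays, with up to 2 genes at the floor. On left gel arrays it was 11.41 to 12.30. Its part in the day 1 differences was not tested.

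The right arteries of the same rats had no injury of their own. Left gel arteries differed from right gel arteries on day 1 by 3.48 (SE 1.18) for Cxcl2, 2.97 (SE 1.20) for S100a8, 2.44 (SE 1.12) for S100a9 and 2.22 (SE 0.82) for Defa5, but none passed by limma (adjusted p = 0.137, 0.215, 0.275 and 0.181). In that comparison 0.549% of all probe sets passed, and 4 members had an unadjusted p under 0.05, as did 16.3% of all probe sets. Without the 5 arrays with dim Hbb, which take out right gel replicate 3, S100a8, S100a9 and Defa5 passed (adjusted p = 0.0181, 0.0106 and 0.0365). That replicate had the highest right gel value of day 1 in all of them (821.1, 387.4 and 209.6). Leaving it out raises the difference, so these passes are no separate support. Cxcl2 passed without left gel replicate 2 (difference 5.13, adjusted p = 0.0272) and without the 4 tPA arrays that stood apart (adjusted p = 0.00635). Replicate 2 had the lowest left gel value of Cxcl2 on day 1 (122.7), so leaving it out raises the difference. The 4 tPA arrays, chosen after the data were seen, act on this comparison only through the shared estimate of the spread. Neither pass is separate support. On day 4 Cxcl2, S100a8 and S100a9 were higher in all 3 left than in all 3 right gel arteries, as were 16.6% of all probe sets, and none passed (differences 2.19, 1.28 and 1.60; adjusted p = 0.336, 0.659 and 0.509), where 5.1% of probe sets did and 17.7% had an unadjusted p under 0.05, which no member had. With tPA, the difference of left from right on day 1 was 3.37 for Cxcl2 and 2.69 for S100a8 (adjusted p = 0.265 and 0.443), where 0.0172% of probe sets passed. Without left tPA replicate 2 alone, Cxcl2 passed (difference 5.34, adjusted p = 0.00549). Cxcl2 and S100a8 had an unadjusted p under 0.05, as did 9.46% of all probe sets. Both passed when the 4 arrays that stood apart were left out (adjusted p = 0.000164 and 0.0238). Those arrays were chosen for low injury scores on the left and high ones on the right. Leaving them out, or left tPA replicate 2 alone, raises the difference for any gene that follows the score. These passes are therefore no separate support. On day 4 S100a8 differed by -3.22 between left and right tPA arteries (SE 1.20, adjusted p = 0.447), with 0.0343% of probe sets past the threshold and 7.53% at an unadjusted p under 0.05, which 1 member reached. The right group held the array with 4916.3, replicate 1, which had the injury score of 0.61, and without it the difference was -1.74 (SE 1.23, adjusted p = 0.744).

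Right gel arteries were also set against sham. Cxcl2 read 64.1 to 191.9 on day 1, above all 4 sham arrays, as did 8.86% of all probe sets, with a difference of 2.03 (SE 1.10, limma adjusted p = 0.449). No member passed on day 1 or day 4 by limma, where 0.927% and 8.82% of probe sets did, and none had an unadjusted p under 0.05, as 12.6% and 22.6% had. Sham did not differ detectably from intact for any member on either day. The largest differences there were 1.28 for S100a8 on day 1 (SE 0.95, adjusted p = 0.663) and 0.97 for Defa5 on day 4 (SE 0.58, adjusted p = 0.578), where 0.944% and 0.378% of probe sets passed. No member had an unadjusted p under 0.05 there, as 10.7% and 10.1% of probe sets had.

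Likeness between genes was measured over the 40 arrays, given here as a description since the arrays share groups and pooled vessels. S100a9 was most like S100a8 (Pearson r = 0.91, Spearman rho = 0.78), then Ceacam4, a cell adhesion molecule (0.89 and 0.80), and Hp, the haemoglobin-binding protein haptoglobin (0.86 and 0.74). S100a8 was most like S100a9, then Ceacam4 (0.83 and 0.66) and Cxcl2 (0.82 and 0.70). Cxcl2 was most like Il1b, the cytokine interleukin-1 beta (0.90 and 0.82), and Mmp9, a gelatin-degrading protease stored in neutrophil granules and also made by macrophages (0.85 and 0.76), then S100a8, and its r with S100a9 was 0.78. Defa5 had weaker likenesses, to S100a8 (0.61 and 0.32), Bglap (0.57 and 0.45) and Myh7, a slow muscle myosin (0.57 and 0.43). Only tested genes were searched, so RatNP-3b, another defensin left out as dim, could not appear. Its likeness to Defa5 was not computed. Cxcr2 was most like Pex11a (0.53 and 0.51), Ppig (0.52 and 0.45) and Apob (0.50 and 0.43), and its r with the other members lay between -0.17 and -0.04.

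**Figure D4:**
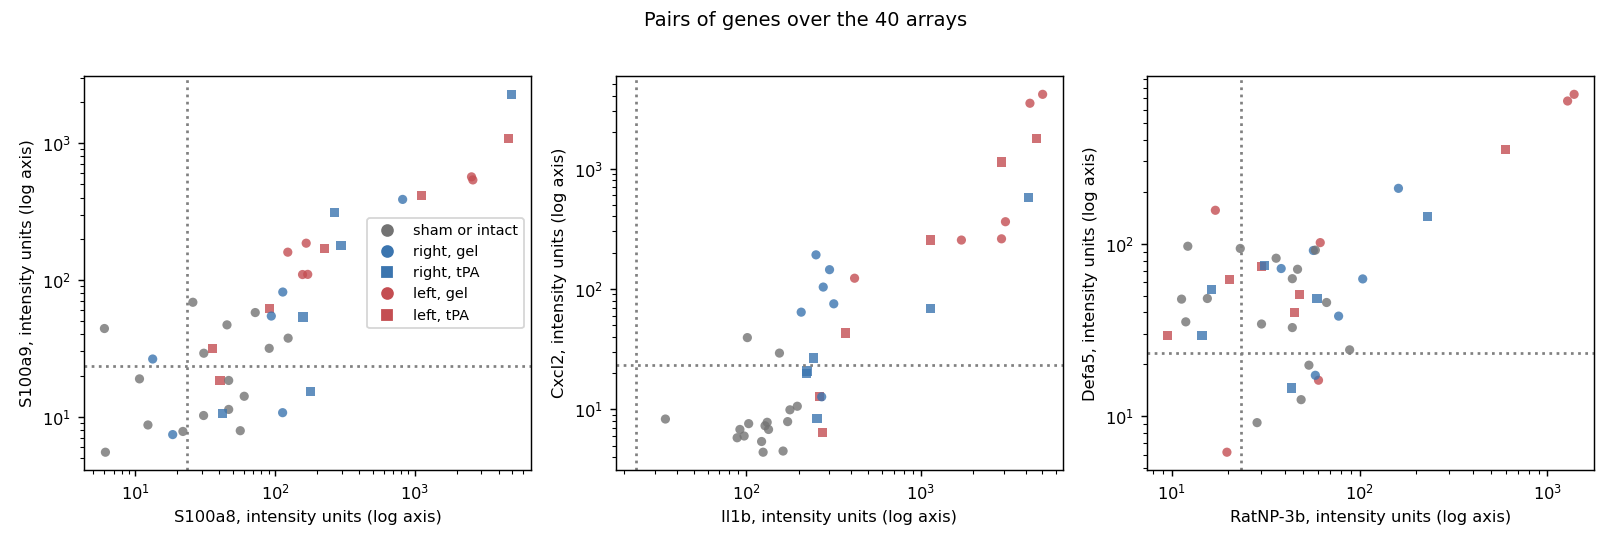
Intensity on each of the 40 arrays (log axes, intensity units) for S100a9 against S100a8, Cxcl2 against Il1b and Defa5 against RatNP-3b, with shape for gel or tPA, colour for side or uninjured arteries and dotted lines at the floor of 23.3. The first 2 pairs rise together above the floor, with many S100a9 and Cxcl2 values under it. Defa5 and RatNP-3b share their highest 3 arrays, left gel day 1 replicates 1 and 3 and left tPA day 1 replicate 3.

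Other genes of the neutrophil response were taken by role. Of 19 granule and antimicrobial genes 5 had a probe set and 1, Mmp9, was bright enough to be tested. Of the dim ones only RatNP-3b and Lcn2 are described, picked after their values were seen, so they do not stand for the rest of the list. Mmp9 read 1075.5, 87.8 and 1101.7 in left gel arteries of day 1 and 491.7, 587.9 and 1304.2 on day 4, against 20.1 to 72.4 and 20.0 to 118.9 in sham. It rose by 4.50 on day 4 (adjusted p = 0.0027) and did not pass on day 1 (3.80, adjusted p = 0.069). RatNP-3b, a neutrophil defensin left out as dim over all arrays, read 1386.0, 61.8 and 1279.7 in left gel arteries of day 1, the same replicates 1 and 3 that were high in Defa5, and 11.3 to 46.8 in sham. Fitted without the filter it rose by 3.79 on day 1 (SE 0.88, limma adjusted p = 0.0199), where 1.84% of 8740 probe sets passed. It was also lower on day 4 than on day 1 in left gel (-3.90, SE 0.95, adjusted p = 0.0223, with 2.21% of probe sets past), and it read 60.5, 19.7 and 17.1 on day 4, of which 2 were raised to the floor. In both defensin probe sets the high day 1 values were on replicates 1 and 3, the 2 most alike arrays. The probe sets may also read the same genes, so their lower day 4 means are not separate results. The RatNP-3b change was not tested with the alike arrays averaged. Lcn2, the granule protein lipocalin 2, read 24.1 to 107 on day 1 and 79.2 to 629.7 on day 4 in left gel arteries, a difference of 1.89 that did not pass (SE 0.75, adjusted p = 0.194). Without the filter it rose against sham on day 4 (2.05, adjusted p = 0.0316, with 13.1% of probe sets past) and did not pass on day 1 (0.76, adjusted p = 0.879), and the change in that effect between the days did not pass (1.28, adjusted p = 0.769).

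Among 8 other ligands that draw or mobilise neutrophils, 4 had a probe set and 3 were tested. Against sham, Pf4, a platelet chemokine, rose in left gel on day 4 (2.03, adjusted p = 0.000597) and did not pass on day 1 (1.31, adjusted p = 0.11). It also rose in left tPA on day 4 (1.61, adjusted p = 0.022). Cxcl6 and Csf3 did not pass in left gel on either day, and Cxcl6 was lower in right gel on day 4 (-1.60, adjusted p = 0.0392). Cxcl3, another ligand of Cxcr2, was dim, at 3.2 to 26.9 in left gel arteries of day 1 and 1.3 to 3.7 in sham. Of 12 receptor and adhesion genes of neutrophils 5 had a probe set and 4 were tested. C5ar1, the receptor of complement fragment C5a, rose in left gel on day 4 (1.88, adjusted p = 0.00194), and Il1r2, the decoy receptor of interleukin-1, rose in left tPA on day 1 (1.59, adjusted p = 0.0319). Itgam, an integrin subunit of neutrophils and macrophages, read 1.7 to 2.5 in left gel arteries of day 1, under the floor as in sham (1.7 to 3.3).

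Of 9 upstream cytokine and sensor genes 5 were tested. Il1b rose in left gel on day 1 (4.08, adjusted p = 0.00569) and day 4 (4.62, adjusted p = 0.000128) and in left tPA on day 1 (3.63, adjusted p = 0.0144). It read 4237.8, 418.2 and 5010.9 in left gel arteries of day 1, with the same replicate 2 low, and 101.5 to 134.3 in sham. Tlr4, the endotoxin receptor, rose on day 4 (1.39, adjusted p = 0.0205). Of 5 endothelial adhesion genes 3 were tested, and Vcam1, which holds leukocytes to the vessel wall, rose in left gel on day 1 (1.47, adjusted p = 0.0344) and day 4 (2.13, adjusted p = 0.000137). Here left gel day 1 replicate 2 was not low: Vcam1 read 3749.7, 5104 and 3663.8, against 1283.9 to 1722.4 in sham. The other tested adhesion genes, Selp and Icam1, did not pass in left gel on either day. On day 1 Selp had a lower mean than in sham (-1.23, adjusted p = 0.082), and Icam1 differed by 0.10 (adjusted p = 0.944). Of 10 leukotriene and oxidase genes 4 were tested, none passed on day 1 and 2 rose on day 4, Alox5ap (2.89, adjusted p = 0.00153) and Cyba (1.64, adjusted p = 0.00824).

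Markers of other cells moved with some of these results. In left gel arteries of day 1, 5 of 7 skeletal muscle genes were higher than in sham. Their mean log2 level was 11.41, 12.30 and 11.45 in replicates 1, 2 and 3, against 6.90 to 7.54 in sham arrays of day 1, with none of the genes at the floor on the left gel arrays and up to 2 on a sham array. It was highest in the replicate with the least Cxcl2, S100a8 and Defa5. On day 4 left gel arrays had means of 6.80 to 7.83 and sham arrays 7.51 to 7.91, and none of the 7 genes passed. Of 7 monocyte and macrophage genes 1 was higher on day 1, Cd14 (1.65, adjusted p = 0.0295), which read 1255.6, 763.2 and 1320.9, and 6 were higher on day 4. Their mean was 9.71, 8.94 and 9.76 in left gel replicates 1, 2 and 3 of day 1 (sham 8.70 to 9.19) and 10.41 to 10.73 on day 4 (sham 7.39 to 8.73). None of 6 lymphocyte genes passed on day 1 and 4 were higher on day 4, with means of 7.19 to 7.82 against 5.17 to 6.01 in sham. None of 4 red cell genes passed on either day in left gel. The part of these cells in the levels of S100a8, S100a9 and the other members was not tested.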

How the data were processed

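RNA of rat carotid arteries was hybridised to 40 Affymetrix rat arrays in 11 groups. Each array has a linear intensity for every probe set as the authors deposited it, and how it was summarised from the probes is not given in the sources used here. These intensities had nearly one trimmed mean on every array (lowest and highest 2% left out), so each value is relative to the rest of its array. Of 8799 probe sets 59 were controls and left out. Values under 23.3 were raised to it, log2 was taken, which understates the change of dim genes, the 2913 dimmest probe sets by mean were left out, and 5827 were tested. Of the probe sets 7006 had 1 gene symbol, 308 several and 1426 none. R 4.3.3 with limma 3.58.1 (lmFit, eBayes) fitted 11 group means on all arrays, for 16 comparisons, with p-values adjusted by Benjamini and Hochberg's method and called under 0.05. The fit was tested on simulated data.

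The members and the gene lists were chosen with earlier results of these data known. All member probe sets are named, with up to 3 genes with the smallest p per role from the lists of related genes. The 3 tested genes most like each member by Pearson r of log2 values are named as well. RatNP-3b, Lcn2, Cxcl3 and Itgam, left out as dim, were named after their values were seen. Nothing in the labels says that arrays of a group came from separate operations, so p-values measure the spread between these arrays, which may be technical, and the number of arrays limits the precision. Same-numbered arrays deviated together (all correlations above 0.1) in right gel against sham on day 1 alone, where the labels give no shared animals. Promoter sequences are RefSeq's (GRCr8). The alternatives were 7 planned ones (quantile normalization, median scaling, no filter, a floor at the 40th percentile, fits of the compared groups alone, a block for the replicate number, each array left out) and 3 added after seeing the data (without 4 tPA arrays chosen by their injury score, with 2 alike left gel arrays averaged, without 5 arrays with dim Hbb).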

Additional observations from a re-analysis of the deposited data

Results flagged for a closer look

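Of 14 groups of 4 or 6 arrays tested, 3 held an array whose gap to the others made up the whole range of its group, a ratio of 1.0 on the floored scale. In each, one array was above the floor of 23.3 and all others were raised to it, which gives that ratio by construction, so the rate of about 1 in 20 groups that chance sets apart does not apply. These were S100a9 in intact replicate 3 (29.1), Cxcl2 in sham day 1 replicate 2 (39.4) and Cxcl2 in sham day 4 replicate 1 (29.3). All 3 values lay below the lowest left gel value of the same gene, 109.4 for S100a9 and 122.7 for Cxcl2.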

How the results depend on the processing

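Of 272 counts of members past the threshold under other settings, 229 were taken as the same as the count reported and 43 as moved. A count of 3 that fell to 2 or rose to 4 was taken as the same. Counts taken as the same are not all listed below. In left gel against sham on day 1 the count was 3. It was 1 with the replicate block (S100a9, with Cxcl2 at adjusted p = 0.0737), 1 with the 2 alike left gel arrays averaged, and 1 to 3 with each array left out. It was 4 without the 4 tPA arrays that stood apart and 4 without the 5 arrays with dim Hbb. In left gel against sham on day 4 the count was 1; it was 0 with a floor at the 40th percentile, 3 with only the groups compared, 2 with the replicate block, 2 without the 5 arrays with dim Hbb, and 0 to 1 with each array left out. In left tPA against sham on day 1 the count was 1; it was 0 without the filter on dim probe sets, with only the groups compared, with the replicate block and without the 5 arrays with dim Hbb, 3 without the 4 tPA arrays that stood apart, and 0 to 3 with each array left out. In left gel against right gel on day 1 the count was 0; it was 1 with a floor at the 40th percentile, 1 without the 4 tPA arrays, 3 without the arrays with dim Hbb, and 0 to 1 with each array left out. In left tPA against right tPA on day 1 the count was 0; it was 2 without the 4 tPA arrays and 0 to 1 with each array left out. For left gel on day 4 against day 1 the count was 1; it was 0 with only the groups compared, with the replicate block and with the alike arrays averaged, and 0 to 1 with each array left out. For the difference of the injury effects between days the count was 0; it was 1 (Defa5) with median scaling, with only the groups compared, without the 4 tPA arrays and without the arrays with dim Hbb, and 0 to 1 with each array left out. The causes were not tested. The same numbers in 2 groups are not stated to share animals, so the replicate block has no basis in the labels, and its other counts did not move. No detection calls came with the intensities, so a level near the floor of 23.3 cannot be told from background, and Cxcl2 was at the floor on 3 of 4 sham arrays of day 1, 5 of 6 of day 4 and all 6 intact ones.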
